A study of Mus musculus with 7 samples.

Results

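Olfactory receptors are G protein-coupled receptors that detect odorants, and mammals have a class I, related to the receptors of fish, and a larger class II. Nearly all mouse class I genes sit in one cluster on chromosome 7. The results below place the genes of that cluster against lamin-associated domains (LADs), the stretches of chromatin that lie at the nuclear lamina, as mapped in mouse embryonic fibroblasts. Members were taken by annotation and position: protein-coding genes of the RefSeq table whose symbol is Olfr or Or followed by a digit and whose midpoint lies between 102 and 106 Mb on chromosome 7 (mm10). This gave 126 genes, of 1109 olfactory receptor genes and 21130 protein-coding genes that could be placed against the domains of their chromosome. All 126 were kept, since positions need no filter on low values.

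The domains came from CUT&RUN, which uses an antibody to bring a nuclease to a chromatin protein and sequences the DNA that it cuts out. The cells were mouse embryonic fibroblasts, named iMEF in the labels and described there as lines derived independently from 1 mouse colony. No treatment or mutant allele is given for any of the 7 libraries, and the list of domains is named wild type. They comprise 2 for Lamin B1, a protein of the lamina, 2 for control IgG, 2 for H3K9me2 (1 per antibody) and 1 for H3K14ac. Only the merged list of 1437 LADs was used. It carries no signal, depth or replicate value, so each gene is either in a LAD or not, no value has an error, and no difference below was tested. The list holds no expression values, so the fibroblast label was not checked against marker genes.

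Each olfactory neuron transcribes a single receptor gene from a single allele, and the other receptor genes are held silent. In most other cells, fibroblasts included, receptor genes are largely silent. The lamina is a site where silent chromatin gathers. Neither transcription nor a chromatin mark of the receptor genes was examined here. In olfactory neurons the lamin B receptor is lost and receptor clusters gather in the nuclear interior instead.

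The class I label fits the annotation. Mouse receptors also carry MOR names, in which the families numbered 1 to 42 are class I. A family number could be read for 122 of the 126 genes, and all 122 had one in that range, in 41 families. Where a gene had several names, a number from 1 to 42 was taken first, which favours the label. Olfr605 (MOR24-5, also MOR202-22P) and Olfr592 (MOR32-13, also MOR0-3P) also had a number outside the range. The other 4 genes, Olfr596, Olfr652, Olfr681 and Olfr687, had no MOR name or one without a family number that could be parsed. Outside the cluster, 3 receptor genes carry a class I family number in one of their names: Olfr503 and Olfr504, farther along chromosome 7, and Olfr1137 on chromosome 2, which also has a class II name. All 3 lay in LADs.

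The sequences below are the promoter windows of the receptors outside the domain and of the first and last receptor inside it. The first 3 genes below lay outside any LAD, Olfr547 was the first receptor gene inside, and Olfr692 was the last. Each sequence is the RefSeq promoter window of GRCm38.p6, 250 bases before to 50 bases after the annotated start, read 5′ to 3′ on the strand of the gene, and the capitals mark the first 3 bases from that start. Positions are chr7:102477853-102478152 (minus strand) for Olfr543, chr7:102488258-102488557 (minus) for Olfr544, chr7:102494724-102495023 (minus) for Olfr545, chr7:102534499-102534798 (plus) for Olfr547 and chr7:105368078-105368377 (plus) for Olfr692.
Olfr543: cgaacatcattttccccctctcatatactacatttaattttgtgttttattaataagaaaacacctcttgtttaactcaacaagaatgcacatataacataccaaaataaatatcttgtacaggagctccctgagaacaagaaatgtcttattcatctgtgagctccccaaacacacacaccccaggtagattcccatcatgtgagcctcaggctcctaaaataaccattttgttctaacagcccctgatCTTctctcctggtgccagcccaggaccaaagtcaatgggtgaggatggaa
Olfr544: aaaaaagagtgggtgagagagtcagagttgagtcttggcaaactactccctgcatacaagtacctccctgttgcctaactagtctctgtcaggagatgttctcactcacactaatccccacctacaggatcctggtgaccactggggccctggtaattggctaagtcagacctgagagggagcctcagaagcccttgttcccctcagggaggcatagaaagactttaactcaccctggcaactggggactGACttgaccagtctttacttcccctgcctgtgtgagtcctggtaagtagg
Olfr545: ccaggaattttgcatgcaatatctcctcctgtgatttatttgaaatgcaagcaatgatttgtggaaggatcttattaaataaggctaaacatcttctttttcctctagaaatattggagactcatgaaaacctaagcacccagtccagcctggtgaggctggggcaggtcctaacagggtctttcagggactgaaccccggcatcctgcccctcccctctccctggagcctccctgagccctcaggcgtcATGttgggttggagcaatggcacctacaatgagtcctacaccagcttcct
Olfr547: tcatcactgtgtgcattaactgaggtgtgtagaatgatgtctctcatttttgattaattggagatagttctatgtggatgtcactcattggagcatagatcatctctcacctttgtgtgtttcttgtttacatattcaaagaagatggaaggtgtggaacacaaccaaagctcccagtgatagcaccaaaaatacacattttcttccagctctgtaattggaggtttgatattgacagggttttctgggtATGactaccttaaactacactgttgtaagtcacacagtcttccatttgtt
Olfr692: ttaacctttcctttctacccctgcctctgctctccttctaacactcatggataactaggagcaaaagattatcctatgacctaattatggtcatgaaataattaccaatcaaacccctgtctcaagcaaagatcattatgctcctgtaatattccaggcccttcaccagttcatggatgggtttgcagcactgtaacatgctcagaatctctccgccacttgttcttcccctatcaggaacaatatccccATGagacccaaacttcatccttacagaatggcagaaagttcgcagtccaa

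In Olfr545, Olfr547 and Olfr692 the capitals spell a start codon, so the annotated start is that of translation and the window holds 50 coding bases. The same holds for 82 of the 109 members with a window in the table (75.2%) and for 72.3% of the windows of other receptor genes, against 28.3% of genes in LADs and 9.77% of 16985 protein-coding genes. Most windows therefore lie next to the coding sequence, and the true start of transcription of these genes may lie farther upstream.

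Nearly the whole cluster lay in 1 LAD. Of the 126 receptor genes, 123 (97.6%) had their midpoint in a single domain from 102529803 to 105384793, and 3 lay outside. Over all protein-coding genes the share in LADs was 24.6%, and over the other 983 olfactory receptor genes it was 87.3% (858 genes). The stretch from the first to the last receptor gene measured 2.89 Mb (102476773 to 105369317), and the domain covered 98.2% of it. No receptor gene was cut by a border, so the counts by whole gene, with 22.5% of all protein-coding genes called, and by any overlap, with 26.0% called, were also 123.

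The domain followed the outline of the cluster. It measured 2855.0 kb, and the stretch from its first to its last receptor gene took up 99.3% of that length. The domain held 151 protein-coding genes, of which the receptors made up 81.5%, together with 31 receptor pseudogenes. Although it ranked only 101 by length among the 1437 LADs, it ranked 2 by number of protein-coding genes and by number of receptor genes. Its gene density was 52.9 protein-coding genes per Mb, against a median of 1.66 per Mb over the 436 LADs of at least 1 Mb. It was the densest of those 436. Receptor genes are short, with a median of 957 bp here and 17386 bp over all protein-coding genes, and the receptor genes together filled 8.85% of the bases of the domain.

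**Figure D1:**
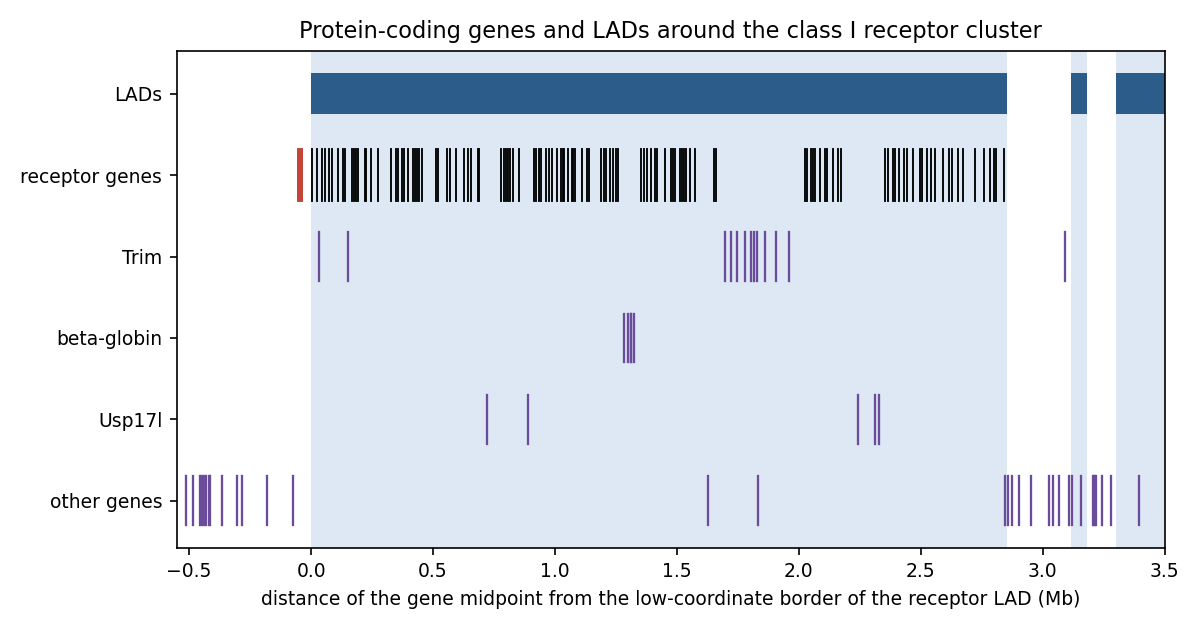
Positions of protein-coding genes (vertical ticks at gene midpoints) and LADs (blue bars and shading), as distance in Mb from the low-coordinate border of the receptor domain. Black ticks are the 123 receptor genes inside, red ticks the 3 outside, and purple ticks other genes, with 1 family of the domain not drawn; the domain begins between the red and the black ticks and ends shortly after the last receptor gene.

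The 3 receptor genes outside were the first 3 of the cluster, and together they form the family MOR42. Olfr543 (MOR42-2, 102476773 to 102477902) lay 52.5 kb from the border, Olfr544 (MOR42-3, 102484114 to 102488307) 43.6 kb and Olfr545 (MOR42-1, 102493823 to 102494773) 35.5 kb. Receptors of this family are known to respond to dicarboxylic acids, and Olfr544 is the receptor of azelaic acid. All 3 genes were annotated on the minus strand. No other gene of the table carries a MOR42 name, so the family was wholly outside. Among the members, each of the other 40 families was wholly inside. MOR34 and MOR40 names also occur outside the cluster, on Olfr503, Olfr504 and Olfr1137. The border fell in the 40.0 kb between Olfr545 and Olfr547, a MOR31 gene whose midpoint lay 5.4 kb inside. The pseudogene Olfr546-ps1 also lies in that interval and was the only 1 of 32 receptor pseudogenes of the window outside a LAD. Domain lengths came in steps of 2.5 kb, so the border is placed no more finely than that, and its error beyond the step is unknown.

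The 3 outer receptors belong to a long stretch without LADs. The gap before the domain ran from 96894821 to 102529802 (5635.0 kb), the longest of the 66 gaps on chromosome 7, and held 95 protein-coding genes. Rrm1, which encodes the large subunit of ribonucleotide reductase, lay next to Olfr543 at 74.1 kb from the border. Stim1, the calcium sensor of the endoplasmic reticulum, followed at 180.4 kb, Rhog at 285.2 kb, Pgap2 at 305.6 kb and Nup98, a nuclear pore gene, at 365.0 kb. None of these was in a LAD.

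At the other end, the border fell between the last receptor genes and a gene of olfactory signalling. Olfr691 (MOR31-6) lay 47.6 kb inside and Olfr692 (MOR36-1, 105368328 to 105369317) 16.0 kb inside. Gm5901 (105375038 to 105378377), beyond the last receptor, was also in the domain, 8.1 kb from the border. Fam160a2 (105371211 to 105400142) was cut by the border, with its midpoint 0.9 kb outside. The next gene was Cnga4, which encodes a subunit of the cyclic nucleotide-gated channel of olfactory neurons, and it lay 19.6 kb outside. The gap that follows measured 262.5 kb and held 9 protein-coding genes: Fam160a2, Cnga4, Cckbr, Cavin3, Smpd1, Apbb1, Hpx, Trim3 and Arfip2. It held no receptor gene. A short LAD of 62.5 kb (105647293 to 105709792) then held the midpoints of Timm10b and Dnhd1, both of which were cut by its borders. Timm10b passed by 0.8 kb only, which is below the step of the borders. A gap of 120.0 kb held Rrp8, Ilk, Taf10, Tpp1, Dchs1 and Mrpl17, and a domain of 3107.5 kb began at 105829793. Of a list of 20 named flank genes, 2 lay in a LAD (10.0%, against 24.6% of all protein-coding genes), and those were Timm10b and Dnhd1. The list leaves out Gm5901 and also Gm4070, which lay in the domain of 3107.5 kb, 94.7 kb from its border.

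Inside the domain, receptors lay far from its ends. The midpoints were at a median of 682.55 kb from the nearer border, with quartiles of 327.9 and 1061.3 kb. All protein-coding genes in LADs had a median of 307.7 kb, and other receptor genes in LADs 574.0 kb. Only 5 receptors were within 50 kb of a border, and the nearest were Olfr547, Olfr692 and Olfr549 (102554286 to 102555236). The deepest were Olfr633 at 1417.2 kb, Olfr632 at 1408.1 kb and Olfr635 at 1405.1 kb. Receptors over 1 Mb deep numbered 36 of 123 (29.3%), against 15.3% of protein-coding genes in LADs. These depths follow from 1 pair of borders shared by all 123 genes and from the length of the domain, so they are not independent values.

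**Figure D2:**
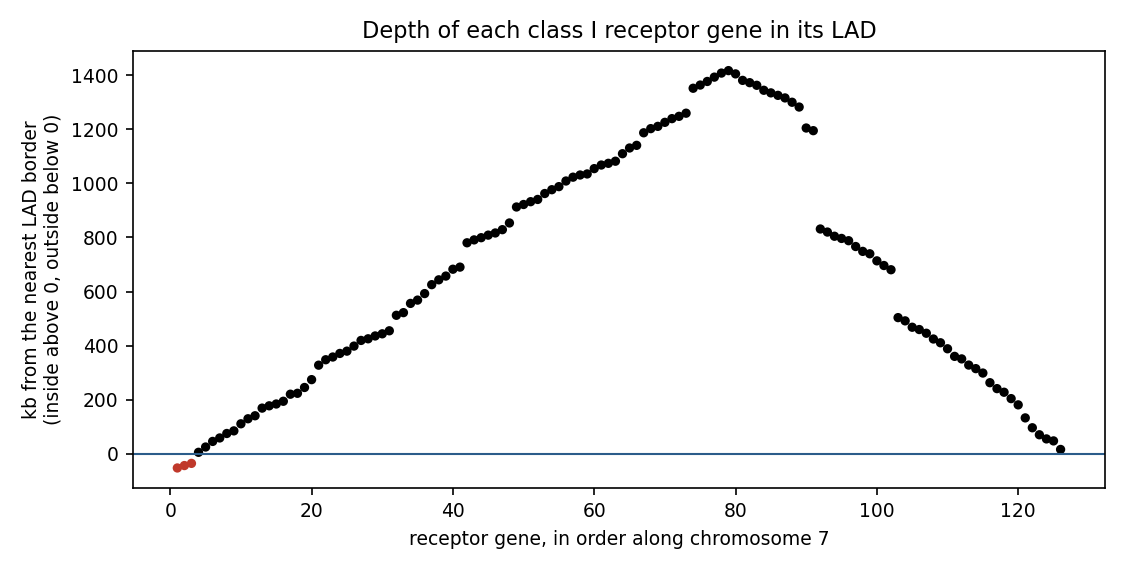
Distance in kb from the nearest LAD border (y axis, inside above 0, outside below 0) for each of the 126 receptor genes, in order along the chromosome (x axis). The 3 red points are Olfr543, Olfr544 and Olfr545; depth rises to 1417.2 kb at Olfr633 and falls again toward Olfr692.

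Receptors were spaced at a median of 12.4 kb. In the 11 full bins of 250 kb from the low-coordinate border, receptor genes numbered between 0 and 17, with a median of 11. The bin with 17 lay from 1000 to 1250 kb, and the bin with none lay from 1750 to 2000 kb, where there were 8 other protein-coding genes. Both were covered by the domain along their whole length. The longest interval without a receptor gene was 362.7 kb, between Olfr649 and Olfr651, and the next was 176.1 kb, between Olfr663 and Olfr665. The domain ran on through both.

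**Figure D3:**
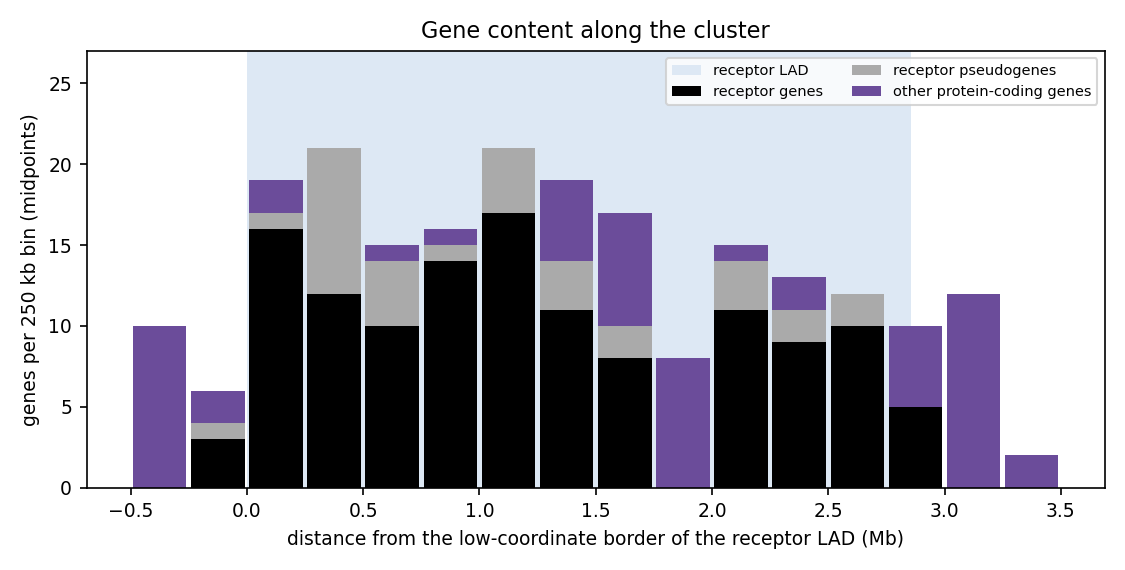
Genes per 250 kb bin (y axis, gene midpoints, stacked) by distance in Mb from the low-coordinate border of the receptor domain (x axis, shading shows the domain). Receptor genes (black) and receptor pseudogenes (grey) fill most bins of the domain, the bin at 1750 to 2000 kb has 8 other genes only, and other genes (purple) make up the outermost bins.

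Between the first and last receptor gene lay 27 other protein-coding genes in 8 blocks. Each block lies between receptors of the domain, which is 1 unbroken interval, so the placement of all 27 in the LAD follows from that of the receptors and is not a separate result. They included 12 Trim genes, 5 beta-globin genes and 5 Usp17l genes.

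Trim genes encode tripartite-motif proteins, many of them E3 ubiquitin ligases, and Trim5, Trim21 and the Trim30 group act in antiviral or innate immune responses. The largest block, from Trim6 to Trim30d, spanned 289.1 kb (104218795 to 104507853) and held 10 Trim genes and Gm38525. Trim6 lay 1157.8 kb from the nearer border, Trim5 1109.0 kb and Trim30a 947.7 kb. Trim21 and Trim68 sat alone among receptors near the low-coordinate end, at 31.9 and 152.7 kb. Trim3, the 13th Trim gene of the window, lay outside beyond Cnga4. Elsewhere in the genome, 6 of 52 Trim genes (11.5%) were in LADs. The 12 in the domain share its 1 pair of borders, so no comparison is drawn from these counts.

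The beta-globin genes, which encode the beta chains of hemoglobin in erythroid cells, were among the deepest genes of the domain. From the adult genes Hbb-bt (1283.4 kb from the nearer border) and Hbb-bs (1297.4 kb), through Hbb-bh2 (1310.0 kb) and Hbb-bh1 (1312.6 kb), to the embryonic Hbb-y (1322.7 kb), they spanned 40.7 kb. Olfr67 lay on one side at 1259.7 kb and Olfr66 on the other at 1352.0 kb. The Usp17l genes, deubiquitinases also known as DUB, were split between 2 single genes, Usp17ld and Usp17lc, and a block of 3 (Usp17le, Usp17lb and Usp17la) that spanned 94.7 kb.

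The smallest gap anywhere in the list was 52.5 kb. Whether shorter breaks were joined is not given in the sources used here. Of the 8 blocks, 2 were longer than this: the Trim block and the block of 3 Usp17l genes. The globin block was shorter than any gap in the list, so the list does not show whether a break of that length could have been recorded.

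Families were spread through the domain to different degrees. Of 117 neighbouring pairs of receptors with family numbers, 47 were of 1 family. Among the 28 families with at least 2 genes, 15 lay within 100 kb and 3 spanned over 1 Mb. MOR13, with 6 genes from Olfr640 to Olfr645, was a compact array of 63.7 kb. MOR31, with 11 genes from Olfr547 to Olfr691, reached over 2800 kb, almost from border to border. MOR32, also with 11 genes, spanned 1920 kb, and MOR14, with 8 genes, 346 kb. Of the 109 genes with a strand in the promoter table, 55 were on the plus and 54 on the minus strand, with 39 changes of strand along the cluster and at most 7 genes in a row on 1 strand.

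Annotated gene spans varied widely. In 104 of the 126 genes the annotated gene was under 1.1 kb, near the size of the single coding exon of a receptor. The shortest, Olfr624 and Olfr655, measured 927 bp. The longest was Olfr687 with 48745 bp, followed by Olfr78 with 18751 bp and Olfr631 with 15605 bp. Olfr78, which is also expressed outside the nose and is known as a receptor of short-chain fatty acids, lay 220.3 kb from the border, and its annotated span contains Olfr560 (223.7 kb). Olfr558, a further class I receptor with known expression outside the nose, lay 177.4 kb inside. Both were thus in the LAD in this list, with no measure of their transcription.

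Promoter windows of the receptors were poor in G and C. The 106 windows in the domain had a median of 37.3% (25.3% to 51.3%) and a median of 1 CpG dinucleotide, with none in 34 of them (32.1%). Windows of all protein-coding genes had a median of 56.3% and 13 CpG, those of genes in LADs 45.0% and 2, and those of the other olfactory receptors 35.0% and 1. The outer receptors had 40.7% (Olfr543), 51.7% (Olfr544) and 49.3% (Olfr545), with 1, 0 and 2 CpG. Their values overlapped those inside, although Olfr544 had the highest value of all 109. Olfr547 on the other side of the border had 38.3%, and Olfr692 43.3%. The 23 other genes between the receptors had a median of 45.7% and 1 CpG, and the 24 other genes of the window outside LADs had 54.7% and 15.5 CpG. Composition is compared here as a description, and its part in the borders was not tested.

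**Figure D4:**
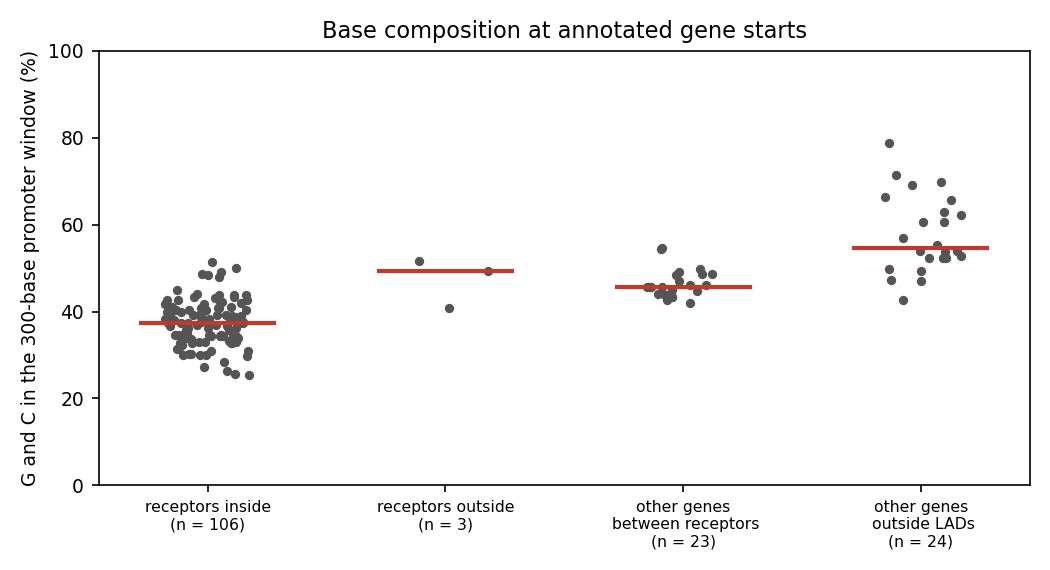
Percentage of G and C in the 300-base promoter window (y axis) of each gene with a window, by set (x axis); red lines are medians. Medians are 37.3% for receptors inside the domain, 49.3% for the 3 outside, 45.7% for the other genes between receptors and 54.7% for the other genes of the window outside LADs.

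Short motifs were counted on both strands of the windows, each as its own letters. TATAAA, the core of a TATA box, was in 43 of 109 receptor windows (39.4%), against 13.5% of all protein-coding genes, 25.1% of those in LADs and 41.3% of other receptor genes. TAATGA and TAATTA, letters of homeodomain sites that share the bases TAAT, were in 30 (27.5%) and 16 (14.7%), against 8.77% and 4.75% of all genes, 16.5% and 8.88% of genes in LADs, and 28.9% and 19.2% of other receptor genes. CCCNNGGG, the paired core of Ebf sites, was in 3 (2.75%), against 15.2% of all genes, 8.81% of genes in LADs and 3.11% of other receptor genes. The 23 windows of other genes between the receptors had TATAAA in 21.7%, TAATGA in 34.8%, TAATTA in 0.0% and CCCNNGGG in 4.35%, so TAATGA was more frequent there than in the receptor windows. In the 27 receptor windows whose start is not an ATG, the shares were 48.1% for TATAAA, 29.6% for TAATGA, 7.41% for TAATTA and 7.41% for CCCNNGGG. The 231 such windows of other receptor genes had 32.9%, 34.2%, 19.9% and 7.79% in the same order of motifs, so for TATAAA the order of the sets turned. With 27 windows, the shares for TAATTA and CCCNNGGG rest on 2 windows each. The windows of Olfr543, Olfr544 and Olfr545 held none of the 4 motifs, nor did that of Olfr547, whereas that of Olfr692 held TAATTA and TAATGA. The part of base composition in these shares was not tested, and a match does not show a site in use.

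Some receptors have near copies. A stretch of 50 bases was shared with the window of another receptor gene in 12 of the 109 windows (11.0%). Olfr596 and Olfr603, on opposite strands, had identical windows, and Olfr679 and Olfr681, Olfr243 and Olfr628, and Olfr611 and Olfr612 shared parts. Olfr643 and Olfr644 also shared a part. Outside the cluster, Olfr613 shared a stretch with Olfr1490, and Olfr657 with Olfr504. How reads that map to more than 1 place were assigned is not given in the sources used here, and similarity beyond the windows was not measured. The 12 receptors with a shared stretch all lay in the domain, as did 106 of all 109 with a window (97.2%). The count is thus not particular to the near copies.

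Set beside the other receptor clusters, defined as receptor genes with neighbours within 1 Mb, the class I cluster ranked 2 of 49 by number of genes. The 49 include lone receptor genes without such a neighbour. Among the 21 others with at least 10 genes, 10 lay wholly in LADs, 10 had genes on both sides of a border and 1 had none in a LAD. The largest cluster, on chromosome 2, had 221 of 222 receptors in 1 LAD. The nearest cluster, 1308.2 kb farther along chromosome 7, consists mainly of class II receptors and had 67 of 67 in the next long domain. A cluster of 24 on chromosome 11 had 0. Of the 10 clusters on both sides, 5 changed side once along their length, as the class I cluster did, and 5 more than once. The class I cluster had 43.6 receptors per Mb and the largest cluster 43.8. By number of other protein-coding genes between its receptors it ranked 3 of 22, with 27, behind clusters on chromosomes 14 (49, of which 14 were in LADs) and 11 (28, of which 0 were).

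**Figure D5:**
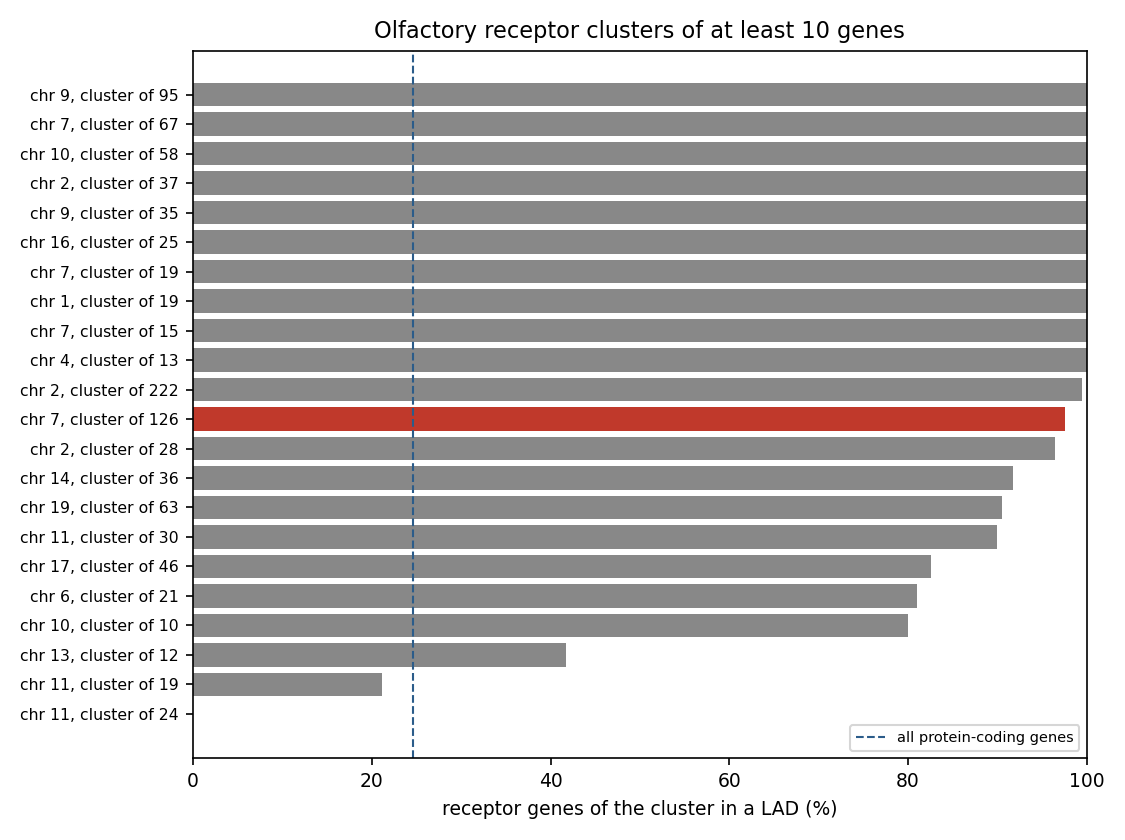
Share of receptor genes in a LAD (x axis, %) for the 22 olfactory receptor clusters of at least 10 genes (y axis, named by chromosome and number of genes); the red bar is the class I cluster and the dashed line the 24.6% of all protein-coding genes. The class I cluster, at 97.6%, sits below the 10 clusters at 100% and the largest cluster of chromosome 2.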

How the data were processed

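CUT&RUN was run on 7 libraries, per the labels' protocols with 500000 cells per reaction. The authors deposited 1 list of LADs, in which each line holds start and end positions in base pairs; its score column is 0 in all 1437 lines. Bowtie2 and mm10 are named in the submitters' processing notes. The domain caller, its filters and the use of IgG or spike-in are not given in the sources used here. The start and end columns were taken to describe both Lamin B1 libraries together, from the word merged in the name of the list. Depth is unknown.

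Domain starts were moved to counting from 1. Genes came from the RefSeq table of GRCm38.p6, the build of mm10, and were placed by midpoint with Python 3.11.15 and pandas 2.3.3. Of 21887 protein-coding rows, 21130 had a midpoint between the first and last domain of their chromosome. Promoter windows matched 109 of the 126 receptor genes by gene ID. Placing was tested on simulated data of 2000 genes. The members and the gene lists were chosen with earlier results of these data known. One of the gene lists is counted but not reported here. Genes named are the members outside LADs, nearest to and farthest from a border, at the ends of runs and of extreme length, and the genes of the gaps and lists; Olfr78, Olfr558, Olfr560, the compared families and the near copies were added after their values were seen.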

Additional observations from a re-analysis of the deposited data

How the results depend on the processing

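Of 33 alternative values for 5 results, 32 stayed close to the reported ones: counts within 1.5 times, shares and distances within the step of the borders. Many of these could not have moved. The domain is longer than the length filters (100 and 500 kb) and its flanking gaps exceed the joining distances (100 and 250 kb). No receptor was cut by a border, and all 126 had a neighbour within 500 kb. For the receptor count, the band of 1.5 times reaches above all 126 genes. The tally is therefore not a measure of stability. The number of receptor genes in the LAD was 123 under 10 of the 12 alternatives listed at the start. It was 120 of 126 with each LAD shrunk by 25 kb, where Olfr547, Olfr549 and Olfr692 fall out, and 154 of 158 with receptor pseudogenes included. Of the alternatives chosen after seeing the data, extending each LAD by 50 kb gave 125, which left Olfr543 outside. The annotated starts of the promoter windows, most of them starts of translation, gave 106 of 109. The covered share went from 98.2% to 77.2% over the whole window of 102 to 106 Mb, which by construction takes in the flanks. No paired analysis was possible because the list gives no values per replicate, and for the same cause no replicate could be left out. A comparison of proteins, also intended, was not run.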
